A study of Rattus norvegicus with 30 samples.

Results

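The genes of hypoxia signalling and erythropoietin followed here in the kidneys of rat pups were Epo, Vegfa, Hif1a, Epas1, Egln3, Adm, Bnip3, Ndrg1 and Slc2a1. They were the genes on a named list whose symbol stood alone on at least 1 probe set, which gave 9 genes of 14217 and 12 probe sets of 31042. The probe set with the highest mean over the 30 arrays represented each gene, and Vegfa, Epas1 and Ndrg1 had 1 further probe set each. Kidney RNA of male pups of the SHRSP/Izm strain, the stroke-prone spontaneously hypertensive rat, had been hybridised to Affymetrix GeneChip arrays of the rat genome, and each value was a log2 signal per probe set. Dams received a diet of 9% casein (LP) or 20% casein (CN) during pregnancy, and all received the same commercial diet after delivery. The groups were D5-LP, D5-CN, D10-LP, D10-CN, D28-LP and D28-CN, named by postnatal day and maternal diet, with 5 arrays each. The labels call the arrays biological replicates, whereas the methods describe pooled renal RNA for each group and the litters are not given, so a p-value here speaks of variation among these arrays, which may be technical. The question was whether the maternal diet was followed by other levels of oxygen-responsive transcripts in the pup kidney, at each age and on average.

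Hypoxia-inducible factors are pairs of an oxygen-labile alpha subunit and a stable beta subunit. In oxygenated cells, prolyl hydroxylases mark the alpha subunit for destruction by the von Hippel-Lindau ubiquitin ligase, so that the pathway is set largely at the protein level, which these arrays do not measure. When oxygen falls, the factor accumulates and raises genes for red cell production, vessel growth, glucose uptake and mitochondrial turnover. In the kidney, interstitial fibroblast-like cells make erythropoietin, chiefly under HIF-2 alpha, the product of Epas1.

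The factors bind a short element whose core is ACGTG or GCGTG. The 250 bases upstream of the transcript start are shown for 3 of the genes, Bnip3 and Epas1 because their arrays deviated most strongly in opposite directions, and Epo because it names the group. They are RefSeq sequences on the GRCr8 build, at chr1:203154963-203155212 (minus strand), chr6:13624730-13624979 (minus strand) and chr12:24841035-24841284 (plus strand), and capitals mark each core on either strand, which overlap where a core is read on both strands.
Bnip3: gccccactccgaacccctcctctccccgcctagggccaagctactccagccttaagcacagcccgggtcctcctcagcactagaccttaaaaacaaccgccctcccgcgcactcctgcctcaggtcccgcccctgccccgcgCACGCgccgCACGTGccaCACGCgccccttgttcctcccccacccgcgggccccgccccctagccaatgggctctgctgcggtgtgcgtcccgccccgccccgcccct
Epas1: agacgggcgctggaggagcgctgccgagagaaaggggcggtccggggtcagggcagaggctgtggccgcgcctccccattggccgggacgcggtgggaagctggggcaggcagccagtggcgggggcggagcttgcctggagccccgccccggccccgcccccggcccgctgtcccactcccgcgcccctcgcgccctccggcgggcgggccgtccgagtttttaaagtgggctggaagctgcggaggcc
Epo: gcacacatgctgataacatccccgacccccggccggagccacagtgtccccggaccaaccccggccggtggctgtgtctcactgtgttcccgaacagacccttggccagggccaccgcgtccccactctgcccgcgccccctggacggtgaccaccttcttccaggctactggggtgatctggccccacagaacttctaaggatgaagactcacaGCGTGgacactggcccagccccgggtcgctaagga
The Bnip3 window held 2 matches to ACGTG and 2 to GCGTG on either strand, the Epo window held 1 match to GCGTG, and the Epas1 window held 0 of either. Over windows of 300 bases, from 250 upstream to 50 downstream of the start, 41.6% of 33469 rat promoters held at least 1 core, against 4 of the 9 listed windows of these genes. Slc2a1 and Hif1a were the other genes with a match, Adm, Egln3 and both Vegfa starts had none in this window, and Ndrg1 was not matched. A match is only a description of the letters.

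None of the 9 genes passed the threshold in any comparison of LP with CN. limma was fitted to all 31042 probe sets with Benjamini-Hochberg adjustment at 0.2, the false discovery rate that the study used for its own test. At D5, 0 of the 9 genes and 2 probe sets in all (0.00644%) were called. At D10 and at D28, 0 of the 9 genes and 0 probe sets (0%) were called, and 1558 (5.02%) and 1890 (6.09%) probe sets had an unadjusted p under 0.05, against 2541 (8.19%) at D5. Averaged over the 3 ages, 0 of the 9 genes were called among 97 probe sets (0.312%), of which 48 were higher and 49 lower in LP, and with each array centred on its median 261 were higher and 991 lower. In the contrasts of the diet difference at D28 or at D10 with that at D5, 0 of the 9 genes and 0 probe sets (0%) were called, while 1349 (4.35%) and 1441 (4.64%) had an unadjusted p under 0.05. At the unadjusted level, 1 of the 9 genes passed 0.05 at D5 (Epas1), 1 at D10 (Adm) and 0 at D28. On average 1 of the 9 did (Epo), as did 3534 of all probe sets (11.4%). In the contrast of D10 with D5, 1 of the 9 did (Adm), and in that of D28 with D5, 0 did. The LP and CN arrays of an age overlapped in all 27 comparisons of a gene at an age, where 1.48% of probe sets at D5, 1.11% at D10 and 0.857% at D28 did not overlap. A difference over 0.2 in size was found for 0 of the 9 genes at D5 (5.56% of probe sets), 2 at D10, Adm and Epo (5.03%), and 0 at D28 (7.33%).

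**Figure D1:**
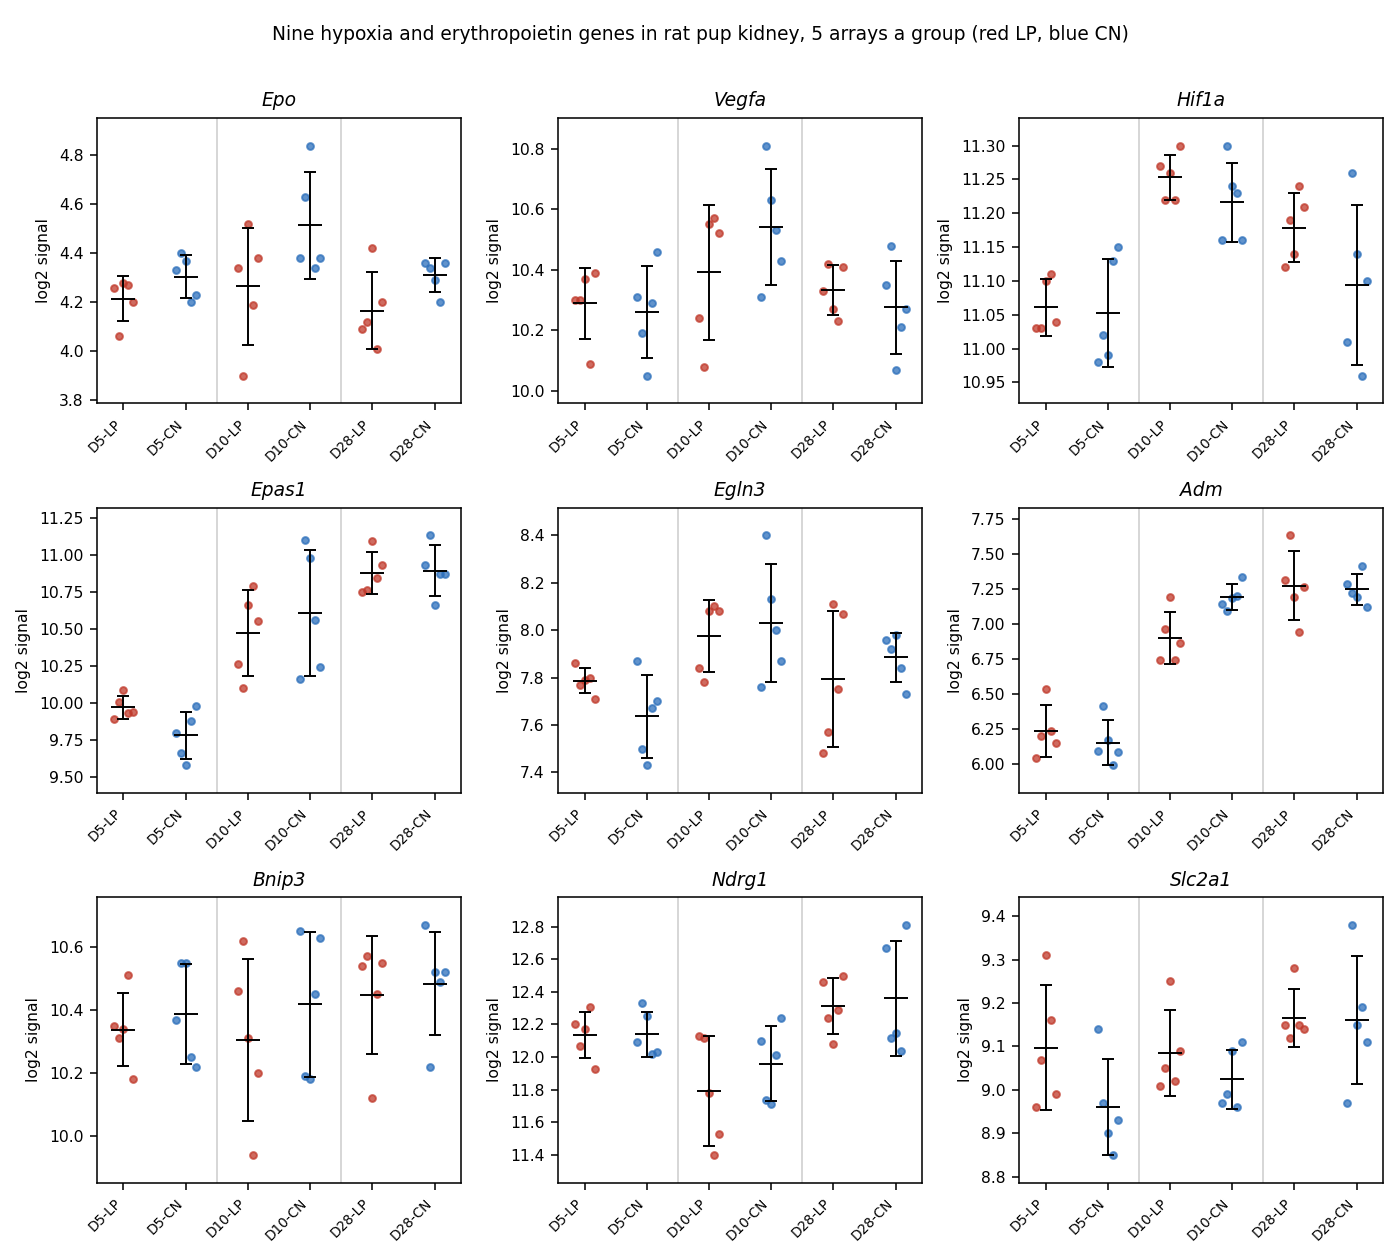
Log2 signal of the 9 genes (vertical axis) by group (horizontal axis), with LP in red and CN in blue; points are the 5 arrays of a group, the bar is the mean and the whiskers are 1 SD. The red and blue points of an age overlap in every panel, and Adm and Epas1 sit lowest at D5.

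Proximal tubule markers averaged between 10.5 and 11.6 on every array, so the arrays carried the labelled tissue. Markers of liver, an organ that also makes erythropoietin before and shortly after birth, were uneven at D5, with list means of 6.54 to 7.85 in D5-LP and 6.51 to 9.53 in D5-CN. D5-CN replicates 2 and 3 stood apart at 9.53 and 9.16, and all 6 liver markers of the list had lower means in D5-LP. The same 2 arrays had the highest proximal tubule means of D5-CN, 11.37 and 11.34. They also had its lowest 3′ minus 5′ differences of control transcripts, 0.464 and 0.404. Leaving them out therefore cannot tell these measures apart. Adipose markers spread over 7.35 to 9.75 in D10-LP and 7.89 to 8.73 in D10-CN, and all 5 of them had higher means in D10-LP. The medulla minus cortex score is the mean of 10 inner medulla markers minus that of 10 cortex markers. It averaged -0.798, -0.345 and -0.004 in LP at D5, D10 and D28, against -0.88, -0.547 and -0.395 in CN. Of the 10 inner medulla markers, 10, 10 and 9 had higher LP means in that order. On average over the ages, 7 had a limma unadjusted p under 0.05 (11.4% of all probe sets) and 0 were called. After the group means were removed, the score had r of -0.715 with Bnip3, 0.527 with Hif1a, 0.517 with Epas1 and -0.511 with Ndrg1. It had 0.431 with Slc2a1 (rho = 0.229), 0.396 with Egln3, 0.348 with Vegfa, 0.274 with Epo and -0.206 with Adm. Adjusted permutation p for r ran from 0.000129 to 0.0371 up to Slc2a1, and from 0.0692 to 0.418 after it. Signs that turned with the score as a covariate are listed in the last section. Whether the score accounts for any diet difference was not tested. The D5, D10 and D28 arrays had been normalized apart from each other, since 2 arrays of an age shared 97 to 234 identical values and 2 arrays of different ages shared 0 to 5.

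Epo, which encodes the hormone that drives red cell production, was the gene with the smallest p on average, and its LP mean was below its CN mean at all 3 ages. Its signal was dim, between the 9.77th and the 21.6th percentile of the probe sets on an array, while the other 8 genes had median percentiles of 53.2 to 99.0. At D5 the log2 signals were 4.26, 4.06, 4.28, 4.27 and 4.20 in D5-LP, against 4.33, 4.40, 4.37, 4.20 and 4.23 in D5-CN. All 5 LP arrays lay below the CN mean, yet the groups overlapped and the difference of -0.09 (SE 0.06) was not called (limma adjusted p = 0.738, two-sided exact permutation p = 0.151). The 2 highest CN arrays, replicates 2 and 3, were those with the highest liver markers, and without them the difference was -0.04 (limma adjusted p = 0.888). At D10 the signals were 4.34, 3.90, 4.52, 4.19 and 4.38 in D10-LP, against 4.38, 4.63, 4.84, 4.34 and 4.38 in D10-CN. LP replicate 2 was the lowest array and CN replicate 3 the highest, and LP minus CN was -0.25 (SE 0.13; by limma the adjusted p was 0.999 and by exact permutation 0.135). With the adipose marker mean as a covariate, an alternative chosen after seeing the data like the removal of the liver-rich arrays, it was -0.14 (limma adjusted p = 1.00). At D28 they were 4.09, 4.12, 4.42, 4.01 and 4.20 in D28-LP, against 4.36, 4.34, 4.29, 4.20 and 4.36 in D28-CN. Here 4 of 5 LP arrays were below the CN mean and LP replicate 3 was above every CN array, with LP lower by a difference of -0.14 (SE 0.08; by limma the adjusted p was 0.770 and by exact permutation 0.103).

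Averaged over the ages, Epo was 0.16 lower in LP on the log2 scale (difference -0.16, SE 0.06, 95% CI -0.28 to -0.05), with a limma unadjusted p = 0.00774 and a limma adjusted p = 0.264. A smaller p was found for 2.92% of all probe sets. The value passed the threshold of 0.2 under 3 alternatives, the last of them chosen after seeing the data, in which far more probe sets did so: with each array centred on its median (difference -0.18, limma adjusted p = 0.155, 4.03% of probe sets called), without D28-LP replicate 5 (-0.16, limma adjusted p = 0.197, 4.79% called) and with the 3′ minus 5′ difference of control transcripts as a covariate (-0.18, limma adjusted p = 0.141, 3.63% called). After quantile normalization it was -0.13 (SE 0.06, limma adjusted p = 0.423), so whether it passed depended on the scaling. Without the 2 liver-rich CN arrays the averaged Epo difference was -0.14 (limma adjusted p = 0.542). Epor, the erythropoietin receptor, averaged -0.12 (SE 0.04, limma adjusted p = 0.231). Of the 9 measured genes of the erythropoietin receptor, iron and Epo-regulator list, 0 were called on average, 4 were above 0 (46.7% of all probe sets) and 5 below, with a median of -0.043 against -0.005 over all probe sets.

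**Figure D2:**
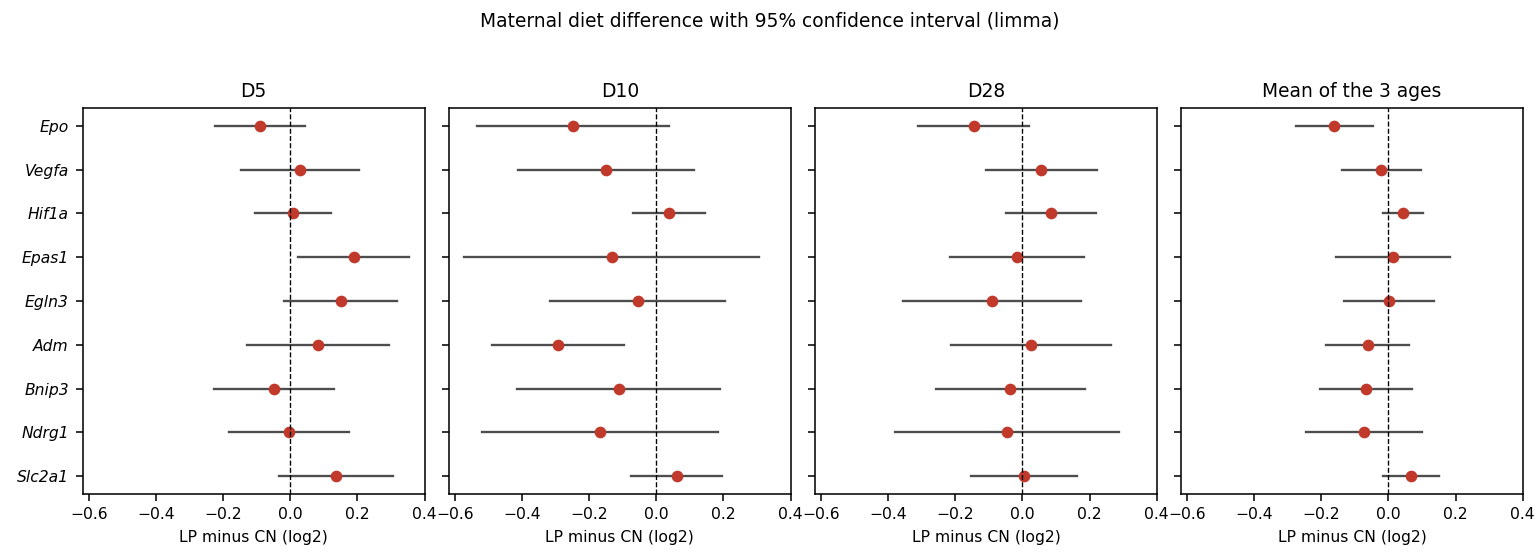
LP minus CN difference on the log2 scale (horizontal axis) for the 9 genes (vertical axis) at D5, D10, D28 and as the mean of the 3 ages; points are limma estimates and lines 95% confidence intervals. The interval of Epo clears 0 in the mean of the ages, that of Epas1 at D5 and that of Adm at D10, and none of the 3 passed the adjusted threshold.

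Of the 2 oxygen-labile alpha subunits, Epas1 held the D5 difference with the smallest p. Epas1, which encodes HIF-2 alpha, gave 9.89, 10.01, 10.09, 9.93 and 9.94 in D5-LP, against 9.80, 9.66, 9.58, 9.88 and 9.98 in D5-CN. All 5 LP arrays were above the CN mean, with a difference of 0.19 (SE 0.08, 95% CI 0.02 to 0.36) that was not called (limma adjusted p = 0.575, exact permutation p = 0.0476). The other Epas1 probe set differed by 0.13 (limma adjusted p = 0.583, exact permutation p = 0.0238), also with 5 of 5 LP arrays above the CN mean. Among the 27 exact tests of the leading probe sets, that of Epas1 at D5 and that of Adm at D10 fell under 0.05, and the smallest p that 5 arrays against 5 allow is 0.00794. The 2 lowest CN arrays, replicates 2 and 3, were again those rich in liver markers, and without them the D5 difference of the leading probe set was 0.08 (limma adjusted p = 0.731). In the second probe set they were not the lowest, at 5.62 and 5.63 beside 5.52, 5.70 and 5.68 for replicates 1, 4 and 5, and its difference without them was 0.13 (limma adjusted p = 0.613). At D10 the Epas1 signals were 10.26, 10.10, 10.66, 10.79 and 10.55 in D10-LP, against 10.16, 11.10, 10.98, 10.56 and 10.24 in D10-CN. This was its widest spread, with SDs of 0.29 in D10-LP and 0.42 in D10-CN around a difference of -0.13 (SE 0.20, limma adjusted p = 0.999). At D28 the means were 10.88 ± 0.14 in D28-LP and 10.89 ± 0.17 in D28-CN (SD, n = 5 each), a difference of -0.02 (SE 0.09, limma adjusted p = 0.962).

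Hif1a, which encodes HIF-1 alpha, held within a narrow band. Its lowest and highest arrays were 11.03 and 11.11 in D5-LP and 10.98 and 11.15 in D5-CN, and the difference of 0.01 had a 95% CI of -0.11 to 0.12. At D10 and at D28 all 5 LP arrays lay above the CN mean, by 0.04 (95% CI -0.07 to 0.14) and 0.08 (95% CI -0.05 to 0.22). Neither was called, with limma adjusted p-values of 0.999 at D10 and 0.773 at D28. Egln3, an oxygen-sensing prolyl hydroxylase that is itself induced by hypoxia, averaged 7.79 ± 0.05 in D5-LP and 7.64 ± 0.17 in D5-CN (SD, n = 5 each), with 5 of 5 LP arrays above the CN mean and a difference of 0.15 (SE 0.08, limma adjusted p = 0.652). Its 2 lowest D5-CN arrays, 7.50 and 7.43, were the liver-rich replicates 2 and 3, and without them the difference was 0.04 (limma adjusted p = 0.886). Its differences were -0.06 (SE 0.12) at D10 and -0.09 (SE 0.12) at D28, and its D28-LP arrays ranged from 7.48 to 8.11, whereas D28-CN ranged from 7.73 to 7.98. Of the 13 measured genes of the HIF regulator list, 0 were called at any age. The one with the smallest p at D5 was Cited2, a transcript whose product competes with HIF for its coactivators, at 0.24 (SE 0.08, limma adjusted p = 0.552), and it stood at 0.31 (SE 0.14, limma adjusted p = 0.770) at D28. Without the 2 liver-rich arrays the D5 difference of Cited2 was 0.14 (limma adjusted p = 0.625). Its D10 difference minus its D5 difference was -0.33 (SE 0.19, limma adjusted p = 0.999), so the higher LP level was not seen at every age.

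Adm, which encodes the vasodilator peptide adrenomedullin, had the largest D10 difference of the 9 genes. Its signals were 6.74, 6.96, 7.19, 6.74 and 6.86 in D10-LP, against 7.14, 7.09, 7.18, 7.20 and 7.33 in D10-CN. In D10-LP, 4 of 5 arrays lay below every CN array, and LP replicate 3 sat within the CN range. The difference of -0.29 (SE 0.09, 95% CI -0.49 to -0.10) had p = 0.00738, smaller than all but 0.673% of probe sets, and an adjusted p of 0.948 by limma (exact permutation p = 0.0317). In the same order, the D10-LP arrays had adipose marker means of 9.64, 9.75, 7.92, 9.33 and 7.35, against 7.89 to 8.73 in D10-CN. With that mean as a covariate, the Adm difference at D10 kept its sign and was not called. The part of adipose tissue in it was not tested. At D5 the Adm signals were 6.04, 6.20, 6.53, 6.23 and 6.15 in D5-LP, against 6.09, 6.41, 6.17, 5.99 and 6.08 in D5-CN, a difference of 0.08 (SE 0.10), or 0.18 (limma adjusted p = 0.625) without the 2 liver-rich arrays. At D28 they were 7.31, 7.63, 7.19, 6.94 and 7.26 in D28-LP, against 7.28, 7.22, 7.19, 7.41 and 7.12 in D28-CN, a difference of 0.03 (SE 0.11). The groups interleaved at both ages, and the D10 difference minus the D5 difference was -0.38 (SE 0.15, limma unadjusted p = 0.0172, limma adjusted p = 0.999), so a change of the diet difference with age was not called. The 4 genes of the adrenomedullin receptor list, Calcrl and the 3 Ramp proteins that direct its ligand choice, gave 0 calls at each age, with medians of 0.04 at D5, -0.03 at D10 and 0.04 at D28.

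Vegfa, the endothelial growth factor that podocytes and tubules supply to renal vessels, averaged 10.29 ± 0.12 in D5-LP and 10.26 ± 0.15 in D5-CN, 10.39 ± 0.22 in D10-LP and 10.54 ± 0.19 in D10-CN, and 10.33 ± 0.08 in D28-LP and 10.28 ± 0.15 in D28-CN (SD, n = 5 each). The differences were 0.03 (95% CI -0.15 to 0.21), -0.15 (95% CI -0.41 to 0.11) and 0.06 (95% CI -0.11 to 0.22) in order of age. At D28 the second Vegfa probe set lay on the other side of 0, at -0.07 (95% CI -0.19 to 0.04), so the sign at that age depends on the probe set. The 2 probe sets also parted at D5 without the 2 liver-rich arrays. The leading one was then at -0.06 (limma adjusted p = 0.83) and the second at 0.16 (SE 0.07, limma adjusted p = 0.563). The list of VEGF and angiopoietin ligands and receptors gave 0 calls of 12 genes at each age. At D5, 11 of the 12 were above 0 (49.7% of all probe sets) and 4 had an unadjusted p under 0.05 (8.19%), with a median of 0.153 against -0.001 over all probe sets. At D10, 2 of the 12 were above 0 (48.4%), with a median of -0.062 against -0.004. The smallest p of the list at D10 belonged to 1 of these 2, Angpt1, the activating ligand of Tek, at 0.31 (SE 0.07, limma adjusted p = 0.948). At D5, Tek, the angiopoietin receptor of endothelium, was at 0.30 (SE 0.08, limma adjusted p = 0.387), and Angpt2, its context-dependent ligand, at 0.19 (SE 0.06, limma adjusted p = 0.468). The 6 measured endothelial markers were all above 0 at D5 as well, with a median of 0.145 and list means of 9.50 ± 0.05 in D5-LP and 9.36 ± 0.14 in D5-CN (SD, n = 5 each), and their part in the D5 values of Epas1 and the VEGF list was not tested. The 2 liver-rich D5-CN arrays, replicates 2 and 3, had the lowest endothelial list means of that group, 9.27 and 9.17, against 9.39 to 9.51 on the other 3. Without both, the median was 0.047 for the endothelial list, with 5 of 6 above 0 and 0 with an unadjusted p under 0.05, and 0.054 for the VEGF list, with 11 of 12 above 0 and 2 under 0.05 (8.56% of all probe sets). Without replicate 3 alone the endothelial mean difference was 0.095, against 0.144 with all arrays. In whole kidney, fewer cells of a type and less RNA in each such cell cannot be told apart.

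Slc2a1, the glucose transporter GLUT1, gave 8.96, 9.07, 9.31, 9.16 and 8.99 in D5-LP, against 9.14, 8.97, 8.90, 8.85 and 8.93 in D5-CN. In D5-LP, 4 of 5 arrays exceeded the CN mean, with LP higher by 0.14 (SE 0.08; by limma the adjusted p was 0.685 and by exact permutation 0.127). Its differences were 0.06 (SE 0.06) at D10 and 0.01 (SE 0.07) at D28. Bnip3, a mitochondrial receptor for mitophagy, differed by -0.05 (95% CI -0.23 to 0.13) at D5, -0.11 (95% CI -0.41 to 0.19) at D10 and -0.04 (95% CI -0.26 to 0.19) at D28, and its 30 arrays lay between 9.94 and 10.67. Ndrg1, a hypoxia-responsive gene also known as a differentiation marker, differed by -0.00 (95% CI -0.18 to 0.17), -0.17 (95% CI -0.52 to 0.18) and -0.05 (95% CI -0.38 to 0.29) in the same order. It was the brightest of the 9 genes relative to its arrays, and its D10 means were 11.79 ± 0.34 in D10-LP and 11.96 ± 0.23 in D10-CN (SD, n = 5 each). Its second probe set had intervals of -0.52 to 0.60, -0.71 to 0.55 and -0.75 to 0.32, too wide to say whether LP and CN differ.

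The remaining target lists also gave 0 calls in each diet comparison. Of 17 glycolytic genes, 12 were above 0 at D5 (49.7% of all probe sets) with a median of 0.07, and 4 were above 0 at D10 (48.4%) with a median of -0.045. At D28, 6 were above 0 (43.8%), with a median of -0.016. At D5, 3 had a limma unadjusted p under 0.05 (8.19%). Without the 2 liver-rich D5-CN arrays, 16 were above 0 at D5 (51.9%), with a median of 0.053, and 2 were under 0.05 (8.56%). Pdk1, the kinase that holds pyruvate out of mitochondria, was at 0.20 (SE 0.07, limma adjusted p = 0.523) at D5. Of 17 other HIF targets, 6 were above 0 at D5 (49.7% of all probe sets) and 4 at D10 (48.4%), with medians of -0.011 and -0.061. At D28, 11 were above 0 (43.8%), with a median of 0.05. Among them Ddit4, an inhibitor of mTORC1, had differences of 0.37 (SE 0.10, limma adjusted p = 0.395) at D5, -0.37 (SE 0.15, limma adjusted p = 0.960) at D10 and 0.58 (SE 0.29, limma adjusted p = 0.770) at D28. Without the 2 liver-rich D5-CN arrays the D5 difference of Ddit4 was 0.26 (limma adjusted p = 0.525). Ankrd37, a small hypoxia-induced gene, was at -0.39 (SE 0.12, limma adjusted p = 0.948) at D10. Among relatives of Ndrg1 and Slc2a1, Ndrg4 averaged 0.21 (SE 0.07, limma adjusted p = 0.233) over the ages.

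Levels at the 3 ages are given as values with no test, because each age had been normalized on its own, and values in parentheses were taken after quantile normalization of the 30 arrays. Adm averaged 6.19 at D5, 7.04 at D10 and 7.26 at D28 over both diets, and no D5 array reached the lowest D10 or D28 array. It stood 0.85 higher at D10 than at D5 (0.87 after quantile normalization) and 1.07 higher at D28 than at D5 (1.14). Between D10 and D28, its neighbours in this order, the arrays overlapped. Epas1 averaged 9.88 at D5, 10.54 at D10 and 10.88 at D28, which put D28 above D5 by 1.01 (1.08 after quantile normalization). Again only the D5 arrays overlapped neither other age. They missed D10 narrowly, with a highest D5 array of 10.09 and a lowest D10 array of 10.096. The second Epas1 probe set stepped up by 0.51 (0.53) and 0.61 (0.65) with no overlap between any ages. Of all probe sets, 15% did not overlap between D10 and D5 and 38.7% did not between D28 and D5, with 3.45% and 14.8% on the higher side and 11.6% and 23.9% on the lower.

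Hif1a stood 0.18 higher at D10 than at D5 (0.32 after quantile normalization). The arrays of these ages narrowly missed each other, the highest at D5 being 11.146 and the lowest at D10 11.156. The D28 arrays of Hif1a, from 10.96 to 11.26, overlapped both other ages. The leading Vegfa probe set overlapped at all ages and differed by 0.03 (0.13) between D28 and D5. Its second probe set, by contrast, stood 0.65 higher at D28 than at D10 (0.69 after quantile normalization) and 0.66 higher at D28 than at D5 (0.75), without overlap, where 28.7% of probe sets did not overlap between D28 and D10 (13.7% higher and 15% lower). Which Vegfa transcripts each probe set reads is not given in the files used here. Ndrg1 was lowest at D10 in both probe sets, with D28 above D10 by 0.46 (0.41) in the leading and 0.95 (0.98) in the second, and the arrays of all ages overlapped. Epo, Egln3, Bnip3 and Slc2a1 overlapped at all ages, and their means moved by at most 0.29 between 2 ages as deposited, or 0.35 after quantile normalization, both for Egln3 between D10 and D5. In the surrounding lists, Ddit4 stood 2.11 (2.19) higher and Pfkfb3, an activator of glycolysis, 1.44 (1.54) higher at D28 than at D5, whereas Hilpda, a lipid droplet protein, had a difference of -1.43 (-1.33). The liver, adipose and proliferation lists shifted over the same ages, with medians at D28 minus D5 of -1.87 (-1.83), 0.94 (0.98) and -1.74 (-1.63), and their part in the values by age was not tested.

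**Figure D3:**
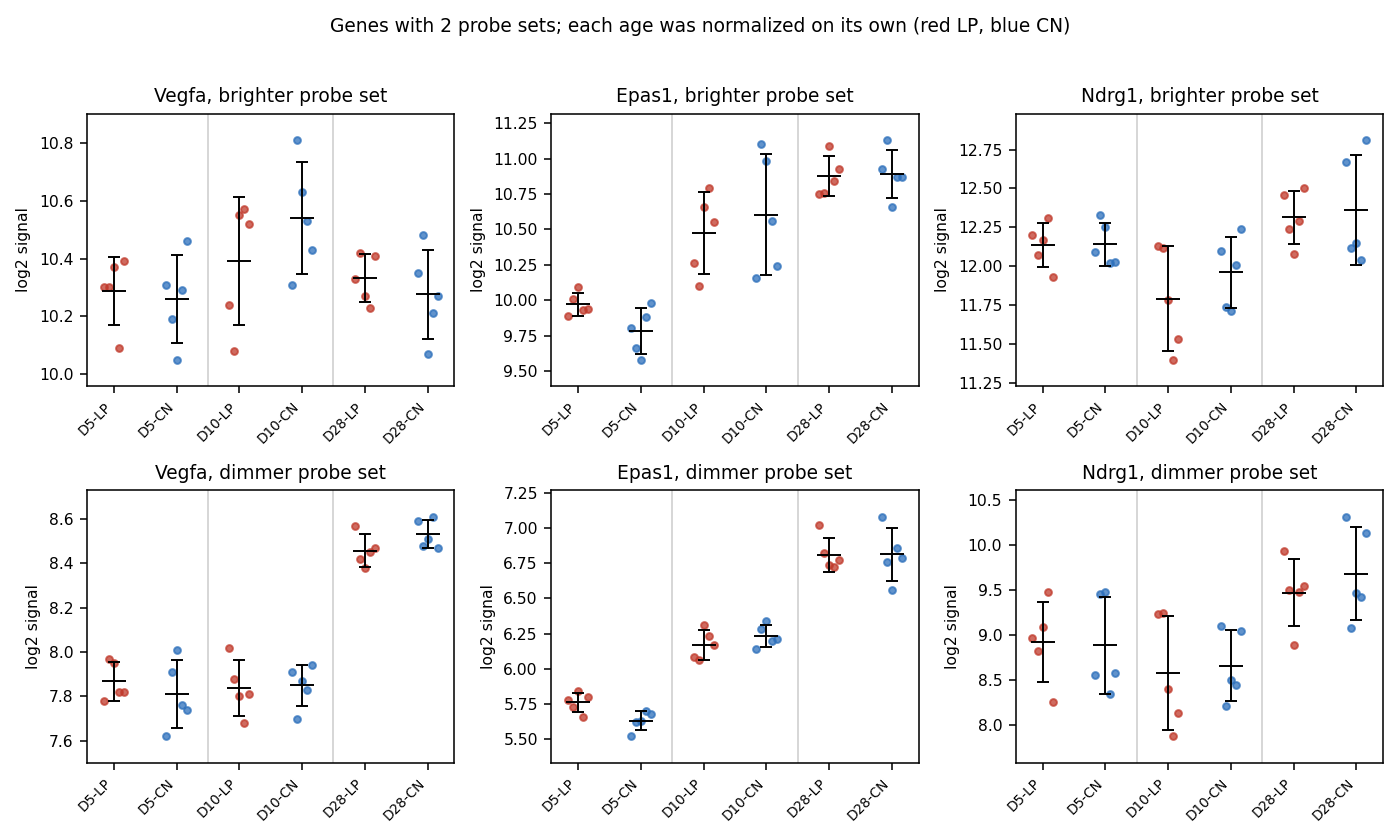
Log2 signal (vertical axis) by group (horizontal axis) of the brighter (upper) and dimmer (lower) probe set of Vegfa, Epas1 and Ndrg1, with LP in red and CN in blue; points are arrays, bars means and whiskers 1 SD. Both Epas1 panels step up with age, whereas only the dimmer Vegfa probe set stands higher at D28 than at the earlier ages.

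Within groups, pairs among 5 of the 9 genes were correlated from array to array over the 3 ages pooled, Epas1, Vegfa and Egln3 in one direction and Bnip3 and Ndrg1 in the other, and at D28 several of these pairs were not. After the 6 group means were removed, 36 pairs of genes were correlated over the 30 arrays, with permutation within groups and Benjamini-Hochberg adjustment over the pairs, and 9 pairs had an adjusted p for r under 0.05. Epas1 and Vegfa deviated together (r = 0.826, rho = 0.817, permutation p = 1e-05 and 3e-05, adjusted 0.00012 and 0.00036), with r of 0.784 at D5, 0.934 at D10 and 0.574 at D28, and 0.768 without the 2 farthest arrays. Epas1 and Egln3 did likewise (r = 0.732, rho = 0.749, permutation p = 7e-05 and 0.00018, adjusted 0.00063 and 0.00158), at 0.575, 0.953 and 0.534 by age and 0.632 without the 2 farthest. Bnip3 and Ndrg1 formed the other end (r = 0.808, rho = 0.813, permutation p = 1e-05 and 2e-05, adjusted 0.00012 and 0.00036), at 0.949, 0.949 and 0.580 by age and 0.772 without the 2 farthest. Epas1 opposed Bnip3 (r = -0.837, rho = -0.843, permutation p = 1e-05 each, the smallest these permutations can give, adjusted 0.00012 and 0.00036), at -0.730, -0.935 and -0.712 by age and -0.830 without the 2 farthest. These 4 pairs had the same sign at each age. At D28, by contrast, Vegfa had r of -0.076 with Egln3 and -0.077 with Bnip3, against pooled values of 0.526 and -0.696, and 0.221 with Ndrg1, against -0.50 pooled. Epas1 and Ndrg1 stood at -0.146 at D28, against -0.608 pooled, and Egln3 had -0.414 with Bnip3 and -0.223 with Ndrg1, against -0.613 and -0.486.

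At D10 the Bnip3 signals, to be read beside those of Epas1, were 10.46, 10.62, 10.31, 9.94 and 10.20 in D10-LP, against 10.65, 10.19, 10.18, 10.45 and 10.63 in D10-CN. In D10-LP, replicate 4 was the lowest array for Bnip3 and the highest for Epas1, and replicate 2 was the reverse. Adm did not share this pattern, with r between -0.256 and 0.386 to the other 8 genes and 0 of its 8 pairs under an adjusted p of 0.05. Epo was correlated with Epas1 at r = 0.537 (permutation p = 0.0313, adjusted 0.0824; rho = 0.409, p = 0.0762, adjusted 0.161), with r of -0.564 at D5, 0.679 at D10, 0.586 at D28 and 0.362 without the 2 farthest arrays, so the pooled value did not hold within D5.

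**Figure D4:**
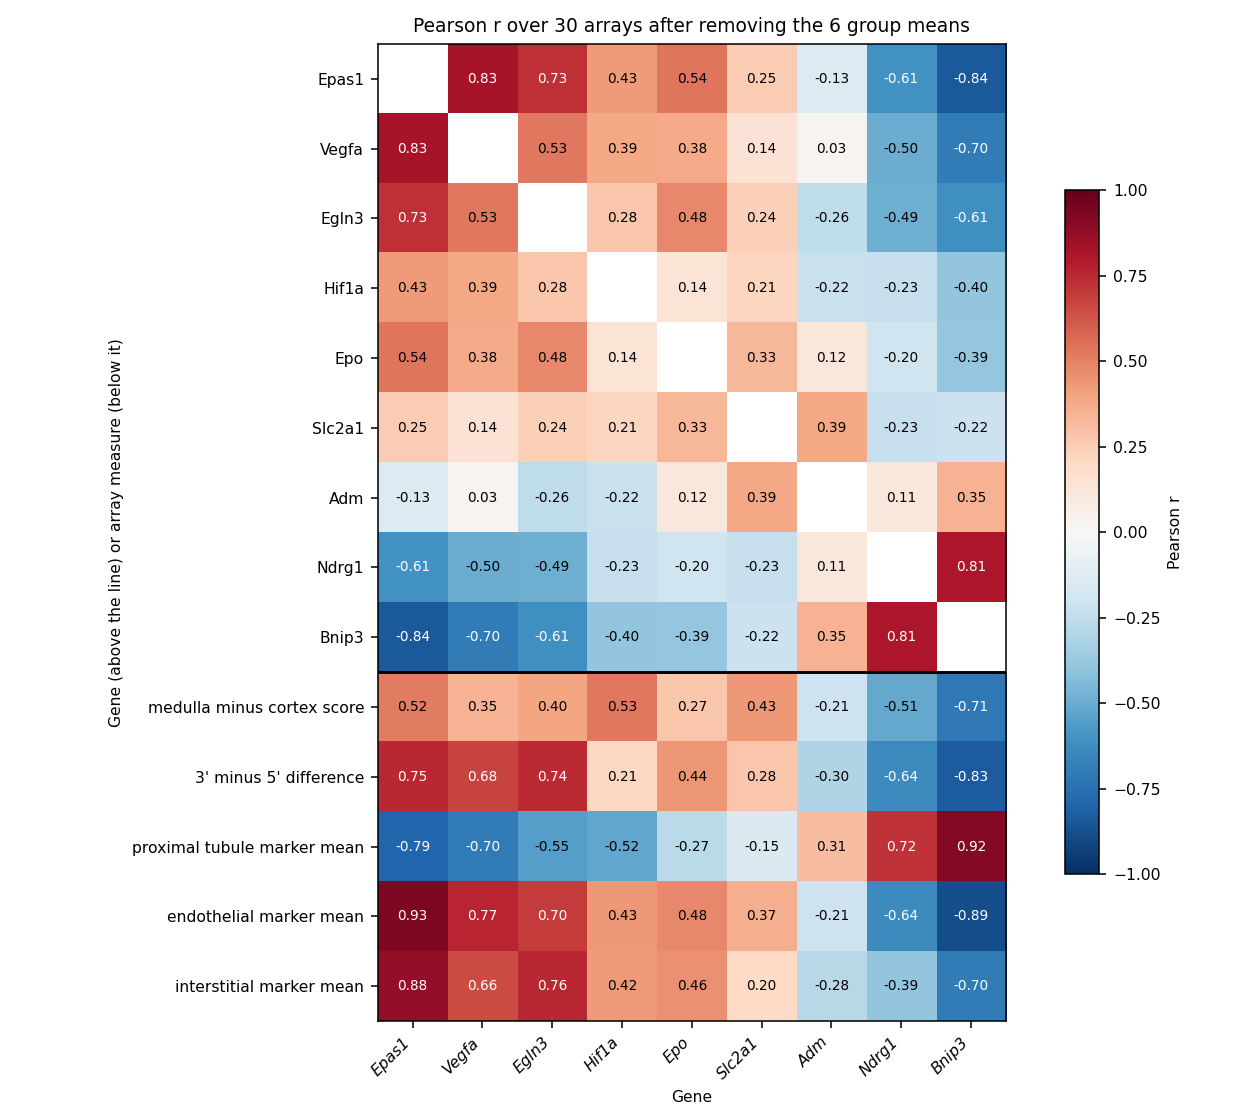
Pearson r (colour and printed value) of each gene (horizontal axis) with the other genes and with 5 measures of the array (vertical axis), over 30 arrays after removing the group means. Epas1, Vegfa and Egln3 lie at the red end with the endothelial and interstitial markers, and Ndrg1 and Bnip3 with the proximal tubule markers.

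The same pattern was seen against marker genes of kidney cells and a measure of RNA quality, in 45 relations of the 9 genes with 5 array measures, of which the marker means were chosen after seeing the data. Whether cell makeup or RNA quality had a part in the pattern was not tested. Bnip3 followed the mean of 8 proximal tubule markers (r = 0.920, rho = 0.907, permutation p = 1e-05 each, adjusted 9e-05), at 0.916, 0.947 and 0.902 by age and 0.902 without the 2 farthest arrays. Epas1 followed the mean of 6 endothelial markers (r = 0.930, rho = 0.892, permutation p = 1e-05 each, adjusted 9e-05), at 0.798, 0.993 and 0.887 by age and 0.923 without the 2 farthest. It also followed the interstitial marker mean (r = 0.878, rho = 0.911), at 0.798, 0.941 and 0.894 by age, and opposed the proximal tubule mean (r = -0.792). Bnip3 opposed the endothelial mean (r = -0.885), so these relations were not particular to 1 list. Bnip3 and Epas1 also followed the 3′ minus 5′ difference of the control transcripts Actb and Gapdh. A larger value of it goes with RNA that is less intact or less fully copied. For Bnip3 r was -0.834 (rho = -0.845, permutation p = 2e-05 and 1e-05, adjusted 0.000129 and 9e-05), with -0.637, -0.932 and -0.826 by age and -0.862 without the 2 farthest. For Epas1 it was 0.753 (rho = 0.804, permutation p = 7e-05 and 4e-05, adjusted 0.000286 and 0.0002), with 0.397, 0.880 and 0.781 by age and 0.779 without the 2 farthest. With that measure removed from both genes, r was -0.577 for Epas1 and Bnip3, 0.653 for Epas1 and Vegfa, 0.651 for Bnip3 and Ndrg1 and 0.390 for Epas1 and Egln3. The other 5 pairs were closer to 0, at -0.324 for Vegfa and Bnip3 and -0.253 for Epas1 and Ndrg1, and at 0.043 for Vegfa and Egln3, 0.021 for Egln3 and Bnip3 and -0.024 for Egln3 and Ndrg1. These r values after removal carry no test, and the marker means were not removed in the same way. The 3′ minus 5′ difference averaged 0.55, 0.59 and 0.63 in LP at D5, D10 and D28, against 0.54, 0.57 and 0.56 in CN.

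**Figure D5:**
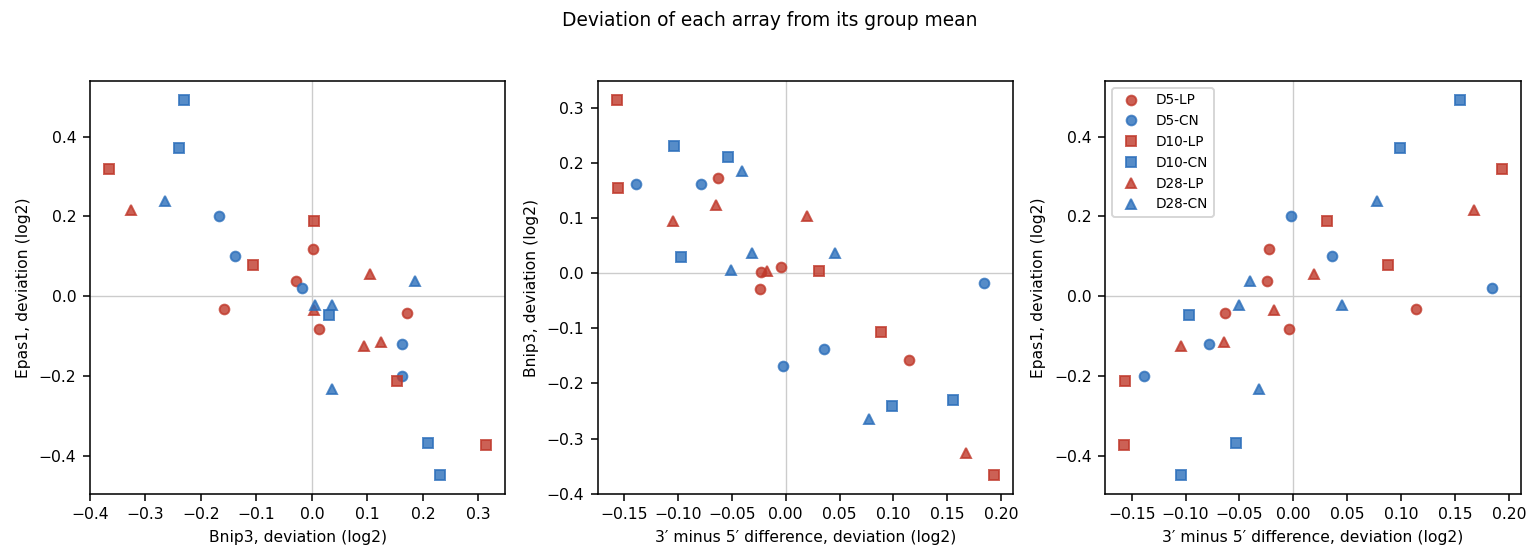
Deviation of each array from its group mean on the log2 scale, for Epas1 (vertical axis) against Bnip3 (horizontal axis) on the left and for Bnip3 and for Epas1 (vertical axes) against the 3′ minus 5′ difference (horizontal axes) in the middle and on the right; red is LP, blue is CN, and circles, squares and triangles are D5, D10 and D28. Epas1 is lower where Bnip3 is higher at each age, with r = -0.837 over all arrays, and the D10 arrays span the widest range.

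The genes most like each of the 9 over the 30 arrays, by Pearson r after removing the group means and among genes with 1 symbol, are named as a description. For Epas1 they were Fpgs (r = 0.955), Pdgfrb (0.954) and F8 (0.949). For Bnip3 they were Etfa (0.974), Bphl (0.963) and Suclg2 (0.961). Vegfa was most like Arhgef10 (0.905), Egln3 most like Plk2 (0.874) and Ndrg1 most like Rnf13 (0.879). Lower likeness was found for Hif1a with 6330403K07Rikl (0.756), Adm with Epb42 (0.713), Slc2a1 with Ppp1r1a (0.697) and Epo with Spns2 (0.678), each over 30 arrays with no test.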

How the data were processed

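Kidney RNA of 30 arrays in 6 groups was measured. The authors deposited log2 signals of 31099 probe sets, normalized in R, with qFARMS named in their companion tables, and all log2 values were used as deposited. In this work 57 control probe sets were left out, 31042 were tested and 20826 had 1 gene symbol. Companion tables for each age were not used, since their 30 array columns name no sample and the rest holds fold changes and p-values of the authors' own comparisons. The comparison of LP with CN used limma (version 3.58.1, R 4.3.3) within each age, and over the 30 arrays for the average and the interactions, with Benjamini-Hochberg adjustment at 0.2. Exact permutation tests covered single genes and 100000 permutations within groups covered correlations. The number of arrays, 5 per group, limits the precision. The scripts were tested on simulated data.

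Age comparisons had been planned as limma tests. They are given as values with no test because each age was normalized apart, a decision taken after a first run of those tests had been seen. The study's rank products test was not run, and its plain t-test is an alternative.

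The genes and lists were chosen with earlier results of these data known. Named genes were all 9 members, with the list genes of smallest p per comparison, the extreme list genes by age, and the 3 most alike genes. Symbols came from the platform annotation, and promoters from RefSeq on GRCr8, in which Ndrg1 was not matched. Alternatives covered scaling, dim probe sets, probe set choice, moderation, a replicate block, covariates and leaving out arrays.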

Additional observations from a re-analysis of the deposited data

Results flagged for a closer look

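The 2 values of D28-LP replicate 3 that follow stood apart from the other arrays of their group, by a gap test in which 54 groups were examined and chance flags about 1 in 20. Its Bnip3 signal of 10.12 was the lowest of D28-LP, with a gap to the next array of 0.735 of the group's range. Its Slc2a1 signal of 9.28 was the highest of D28-LP, with a gap of 0.788 of the range. The same array had the highest medulla minus cortex score (0.835) and the highest 3′ minus 5′ difference (0.792) of the D28 arrays, and their part in the values was not tested.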

How the results depend on the processing

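With 5 arrays per group the spread between arrays limits each call. No member was called at a single age or in an interaction under any alternative run, and on average only Epo was, with values from -0.183 to -0.13 when 1 array was left out. Age tests were not run as tests because each age was normalized apart. Dropping dim probe sets left no value for Epo. The liver, adipose and 3′ minus 5′ alternatives were chosen after seeing the data.

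The 2 probe sets called at D5 became 4 without dim probe sets, 5 with the mean of probe sets, 5 with trend and robust moderation, 1 with the replicate block, 0 with the medulla minus cortex covariate, 38 with all 30 arrays in the fit, 0 by the methods' t-test, 0 without the liver-rich arrays, 18 with the 3′ minus 5′ covariate, 0 with the adipose covariate and 0 to 67 when 1 array was left out (67 without D5-LP replicate 5, 29 without D5-CN replicate 1, 6 without D5-CN replicate 4 and 0 without any other). The 0 calls at D10 became 8 with all 30 arrays, 1 by the methods' t-test and 40 with the 3′ minus 5′ covariate, and the 0 calls at D28 became 1 with all 30 arrays. The t-test gave 2538, 1790 and 1841 probe sets at an unadjusted 0.05 at D5, D10 and D28, and 0, 1 and 0 after Benjamini-Hochberg. The 97 averaged calls, 49.5% of them higher in LP, became 63 (46% higher) after quantile normalization and 1252 (20.8% higher, 261 against 991 lower) after median centring, which moved the median of all probe sets from -0.00461 to -0.0206. They became 8 without dim probe sets, 49 with the mean of probe sets, 22 with the replicate block, 12 with the medulla minus cortex covariate, 34 without the liver-rich arrays, 1126 with the 3′ minus 5′ covariate, 23 with the adipose covariate and 2 to 1486 when 1 array was left out, with 1486 without D28-LP replicate 5, 1065 without D28-CN replicate 2, 1009 without D5-CN replicate 5 and 2 without D5-LP replicate 3. The 0 interaction calls ranged over 0 to 2 (D28 minus D5) and 0 to 3 (D10 minus D5) when 1 array was left out, and the first became 3 without the liver-rich arrays. The averaged Epo difference became -0.177 with median centring, -0.179 with the 3′ minus 5′ covariate and -0.164 without D28-LP replicate 5, each past the threshold. The cause of these moves was not tested.

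Replicate numbers did not pair the arrays, since same-numbered deviations correlated from -0.705 to 0.649 and 2 of 15 arrays correlated best with their own number. The replicate block changed no member call.

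The signs of these differences turned, none of them a call before or after. Quantile normalization gave -0.00174 for Adm and -0.0228 for Slc2a1 at D28 and -0.0194 for Egln3 on average. Median centring gave -0.0101 for Hif1a at D5, -0.00724 for Slc2a1 at D28, and -0.00269 for Epas1 and -0.0145 for Egln3 on average. The mean of probe sets gave 0.0175 for Ndrg1 at D5, -0.00886 for Vegfa at D28 and -0.0533 for Vegfa at D28 minus D5. The medulla minus cortex covariate gave -0.0163 for Vegfa, -0.0205 for Hif1a and 0.0263 for Ndrg1 at D5, 0.0292 for Bnip3 at D10, 0.0773 for Bnip3, 0.0569 for Ndrg1 and -0.0582 for Slc2a1 at D28, -0.063 for Epas1, -0.0442 for Egln3, 0.0181 for Bnip3 and 0.00474 for Ndrg1 on average, and -0.0206 for Vegfa and 0.0637 for Ndrg1 at D28 minus D5. Without the liver-rich arrays the values were -0.0637 for Vegfa, -0.0245 for Hif1a, 0.0578 for Bnip3 and 0.0935 for Ndrg1 at D5, -0.0219 for Epas1 and -0.0361 for Egln3 on average, and -0.0941 for Bnip3 at D28 minus D5. The 3′ minus 5′ covariate gave 0.0718 for Bnip3 and -0.0443 for Slc2a1 at D28, -0.0318 for Epas1 and -0.0334 for Egln3 on average, and -0.0328 for Vegfa and 0.0427 for Ndrg1 at D28 minus D5. The adipose covariate gave 0.0214 for Egln3 at D10. Leaving out 1 array gave ranges across 0 of -0.0222 to 0.0803 for Vegfa, -0.0106 to 0.0315 for Hif1a and -0.0459 to 0.0467 for Ndrg1 at D5, -0.123 to 0.037 for Egln3 at D10, -0.0746 to 0.0449 for Epas1, -0.0659 to 0.107 for Adm, -0.103 to 0.0447 for Bnip3, -0.126 to 0.0662 for Ndrg1 and -0.0407 to 0.0612 for Slc2a1 at D28, -0.0401 to 0.00558 for Vegfa, -0.024 to 0.0544 for Epas1 and -0.0247 to 0.0323 for Egln3 on average, -0.0255 to 0.079 for Vegfa, -0.148 to 0.0242 for Adm, -0.0534 to 0.0941 for Bnip3 and -0.122 to 0.0699 for Ndrg1 at D28 minus D5, and -0.142 to 0.0279 for Bnip3 at D10 minus D5.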
